A study of Mus musculus with 12 samples.

Results

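Lipid-associated macrophages (Mφ) are a state that lipid-laden or damaged tissues are known for, and 6 genes often used to mark it, Spp1, Trem2, Gpnmb, Lgals3, Cd9 and Cd63, were followed in cardiac Mφ of mice infused with the β-adrenergic agonist isoproterenol (iso). They were picked by name from the 24445 gene symbols of the count files, and all 6 were among the 14608 genes that passed the filter on low counts. They were chosen with their levels in these groups already known, so their values, intervals and calls are given as a description, with no p-value.

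Cells came from the hearts of 12 adult male C57BL6/J mice, 4 in each of 3 groups, with 1 library per mouse. Control (Ct) mice carried a saline pump, for 14 or 28 days by the study's methods, and which time applies to each Ct mouse is not stated. ECH mice, named for early concentric hypertrophy, received iso at 30 mg/kg/day for 14 days, and HF mice, named for heart failure, received the same dose for 28 days. The labels name no engineered allele in any group. Hearts were digested with collagenase, CD45+ leukocytes were enriched on beads, and live CD11b+ cells positive for both CD14 and CD64 were sorted, and cDNA was amplified from their RNA for sequencing. Each library is therefore a mean over the sorted cells of a heart, and a higher level in it could come from more cells of the lipid-associated state or from more RNA per cell, which cannot be told apart here.

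In this state, Mφ that have taken up lipid or cell debris switch on genes for lipid sensing, lysosomal breakdown and secretion. TREM2 is a surface receptor for lipids and apolipoproteins that signals through the adaptor TYROBP (DAP12) and is held to drive the program in adipose tissue, liver and atherosclerotic plaques. Osteopontin (Spp1) and galectin-3 (Lgals3) are secreted products linked to fibrosis of the heart and other organs, GPNMB is a transmembrane glycoprotein of lysosomes and the cell surface under control of the MiT/TFE factors of lysosome biogenesis, and CD9 and CD63 are tetraspanins of the plasma membrane and of late endosomes.

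The Ct libraries held 88466559 to 101190984 counts each, the ECH libraries 103926379 to 109030774 and the HF libraries 106276190 to 111180291. The biological coefficient of variation over all genes was 60.8%. The labelled cell type was checked against 6 markers of the sort (Ptprc, Itgam, Cd14, Fcgr1, Csf1r and Adgre1). All 6 were detected in every library, at a summed level of 7080 to 9700 CPM (normalised read counts, set to a common library size after TMM scaling) in Ct, 8110 to 10200 in ECH and 8220 to 9140 in HF, and 0 of them was called in any comparison. Itgam, the gene of CD11b, had a mean of 373 CPM in Ct, 709 in ECH and 579 in HF. Its log2 difference was 0.92 in ECH vs Ct (edgeR FDR 0.132), with every ECH mouse above every Ct mouse. In HF vs Ct it was 0.63 (edgeR FDR 0.239), and the groups overlapped. The difference was positive for 3 of the 6 markers in each of these comparisons. Library numbers in the labels run from 1 to 6 a pair of times. Numbers 1 and 2, for example, stand on ECH mice 1 and 2 and again on HF mice 1 and 2. The split used here places ECH mice 1 and 2 with the Ct mice and ECH mice 3 and 4 with the HF mice. It was inferred, and the numbers alone allow other splits. Whether these inferred sets were prepared apart is not stated, so ECH was also compared with Ct and with HF inside a set. In this split HF and Ct share no set.

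To show the genes themselves, the 250 bases before the RefSeq start of transcription (assembly GRCm38.p6) are printed for the 3 genes that stood clear of Ct in both iso groups, Spp1, Gpnmb and Lgals3, and for Trem2, which did not. Capitals mark matches to any of 7 short motifs, searched on both strands in the 300 bases from 250 before to 50 after the start.
Spp1, chr5:104434861-104435110, + strand: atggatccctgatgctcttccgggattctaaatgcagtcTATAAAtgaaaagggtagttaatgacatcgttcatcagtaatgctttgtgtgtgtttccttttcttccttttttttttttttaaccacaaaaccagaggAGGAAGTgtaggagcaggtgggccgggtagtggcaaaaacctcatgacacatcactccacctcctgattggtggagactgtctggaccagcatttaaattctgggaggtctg
Gpnmb, chr6:49036268-49036517, + strand: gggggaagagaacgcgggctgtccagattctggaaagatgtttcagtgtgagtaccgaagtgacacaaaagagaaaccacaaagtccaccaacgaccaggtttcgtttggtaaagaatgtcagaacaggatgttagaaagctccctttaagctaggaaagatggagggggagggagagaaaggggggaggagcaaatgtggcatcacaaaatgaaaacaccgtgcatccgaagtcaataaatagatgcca
Lgals3, chr14:47373610-47373859, + strand: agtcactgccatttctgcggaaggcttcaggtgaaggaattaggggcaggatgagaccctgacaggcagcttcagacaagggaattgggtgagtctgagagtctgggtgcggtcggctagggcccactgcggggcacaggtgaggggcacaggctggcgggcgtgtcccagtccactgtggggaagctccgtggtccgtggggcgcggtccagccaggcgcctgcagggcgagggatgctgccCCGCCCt
Trem2, chr17:48346151-48346400, + strand: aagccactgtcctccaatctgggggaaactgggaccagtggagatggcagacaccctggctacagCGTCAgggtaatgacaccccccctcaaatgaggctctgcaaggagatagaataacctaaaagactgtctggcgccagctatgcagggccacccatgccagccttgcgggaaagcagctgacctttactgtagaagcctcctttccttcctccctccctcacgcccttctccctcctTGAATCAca

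The 4 windows had little in common in these motifs. Spp1 held AGGAAGT, an ETS element of the type bound by the Mφ factor PU.1, with its first base 112 bases before the start. It also held TATAAA, the letters of a TATA box, 211 bases before the start. AGGAAGT stood in 9.35% and TATAAA in 13.6% of the 32851 promoter windows of this length. Trem2 held TGANTCA, the AP-1 element, 9 bases before the start, and TGACG, a core of the cyclic AMP response element, on the other strand 185 bases before it, and these stood in 7.81% and 20.8% of all windows. Gpnmb held an AP-1 element too, with its first base 9 bases after the start, beyond the printed stretch. Lgals3 held the GC box GGGCGG on the other strand 7 bases before and on the gene's strand 5 bases after the start, a motif of 35.7% of windows. GC content of the printed 250 bases was 43.6% for Spp1, 47.2% for Gpnmb, 66% for Lgals3 and 56% for Trem2. CATGTG, an E-box form used by the factor MITF and present in 14.2% of windows, was found on the other strand of the Cd9 window alone among the 6 genes, and CACGTG, the E-box in the core of the CLEAR element of lysosomal genes and present in 7.15%, in none of the 6. No matches overlapped each other, and a match of letters is no measure of binding.

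In the GENCODE M21 annotation of GRCm38, Spp1 lies at chr5:104435118-104441050 on the + strand in 6 exons, and the gene model Gm42793 overlaps it on the same strand, so reads in the shared part are uncertain between them. Gpnmb lies at chr6:49036546-49070929 (+, 11 exons), Trem2 at chr17:48346401-48354147 (+, 5 exons), Lgals3 at chr14:47367751-47386160 (+, 6 exons) and Cd63 at chr10:128900989-128912822 (+, 9 exons). For Lgals3, Cd63 and Cd9 the RefSeq start lies inside these bounds, so the window of Lgals3 printed above belongs to a start downstream of the gene's outermost one. Cd9 lies at chr6:125460266-125494791 on the − strand in 8 exons and overlaps Gm28809 and Gm26728 on the other strand. The strand setting of the counting is not stated in the sources used here, so reads of Cd9 and of these antisense models cannot be told apart.

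Among the 6 genes, the secreted and glycoprotein genes Spp1, Gpnmb and Lgals3 were higher in every iso mouse than in any Ct mouse at both times, while the receptor gene Trem2 and the tetraspanin gene Cd63 overlapped with Ct at both times. Cd9 overlapped with Ct in ECH and stood above it in HF. The groups were thus apart, with iso higher, for 3 of 6 genes in ECH vs Ct, where the same held for 4.33% of all 14608 genes, and for 4 of 6 in HF vs Ct, where it held for 4.59%. For 0 of 6 were they apart with iso lower, which held for 3.64% and 4.45% of all genes. At an FDR under 0.05 and a change of at least 2-fold, the threshold of the study, 3 of 6 were called in each of these comparisons (Spp1, Gpnmb and Lgals3), where 0.267% of all genes were called higher in ECH vs Ct and 0.267% in HF vs Ct, and 0.089% and 0.11% lower. Since the genes were chosen on these contrasts, nothing is read from these counts. The calls did not hold in every setting: in ECH vs Ct 0 of the 6 were called inside the shared library set, when only these groups were fitted or without Ct mouse 1, and 1 (Lgals3) with the replicate block. Over 21 other settings in ECH vs Ct, Spp1 was called in 17, Gpnmb in 13 and Lgals3 in 16, and over 20 in HF vs Ct in 17, 10 and 20. In HF vs Ct, Lgals3 alone was called with the replicate block, and Lgals3 and Cd9 with the set as a covariate, where the calls of Spp1 and Gpnmb were lost. The median log2 fold change of the 6 was 0.71 in ECH vs Ct and 1.05 in HF vs Ct, beside 0.01 and −0.01 over all genes tested. The comparisons share the Ct mice and are given side by side.

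**Figure D1:**
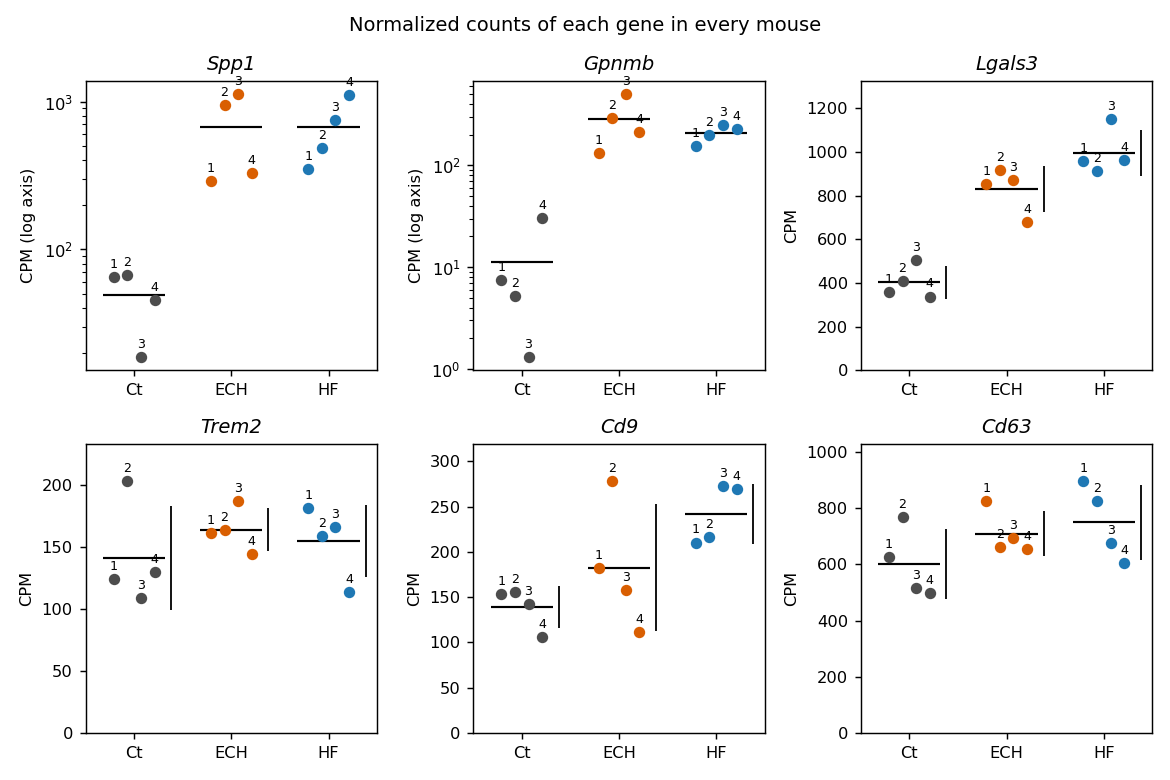
CPM of each of the 6 genes in every mouse, with mice numbered 1 to 4 within Ct (grey), ECH (orange) and HF (blue). Horizontal lines are group means, and vertical lines are ± 1 SD (n = 4), drawn on the linear axes only; the Spp1 and Gpnmb axes are logarithmic. All 8 iso mice lie above all 4 Ct mice for Spp1, Gpnmb and Lgals3, and the groups overlap for Trem2 and Cd63.

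Spp1 encodes osteopontin, a secreted phosphoprotein that binds integrins and CD44. Its level was 64.9, 67.5, 18.7 and 45.4 CPM in Ct mice 1 to 4. It was 291.9, 948.4, 1121.5 and 328.1 CPM in ECH mice 1 to 4, and 348.8, 487.2, 749.4 and 1099.5 CPM in HF mice 1 to 4. The lowest iso mouse, ECH mouse 1, was still 4.32 times the highest Ct mouse, and within ECH mice 2 and 3 lay well above mice 1 and 4. Means were 49.1 ± 22.6 CPM in Ct, 673 ± 425 in ECH and 671 ± 330 in HF (SD, n = 4), a log2 fold change of 3.78 ± 0.56 (SE) in ECH vs Ct and 3.77 ± 0.56 in HF vs Ct, or 13.7-fold in each. Spp1 moved from rank 3879 of 14608 genes by mean CPM in Ct to rank 179 in ECH and 194 in HF. Inside the set that ECH mice 1 and 2 share with Ct, the log2 fold change was 3.65.

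Gpnmb had the largest fold change of the 6 genes at either time in the fit of all libraries. In HF vs Ct Spp1 was above it with the set as a covariate (3.55 against 3.47 on the log2 scale) and without Ct mouse 2 and HF mouse 1. Its CPM was 7.45, 5.21, 1.30 and 30.5 in Ct mice 1 to 4, the last of them 4.1 times the next. In ECH mice 1 to 4 it was 132.6, 292.9, 501.4 and 213.1 CPM, and in HF mice 1 to 4 it was 156.1, 199.3, 248.0 and 225.8 CPM. The HF mice were close together (coefficient of variation 19.1%), the ECH mice less so (55.6%), and the Ct mice varied most (118%). Means were 11.1 ± 13.2 CPM in Ct, 285 ± 158 in ECH and 207 ± 39.5 in HF (SD, n = 4), and the log2 fold change was 4.68 ± 0.77 (SE) in ECH vs Ct and 4.22 ± 0.76 in HF vs Ct, or 25.6-fold and 18.6-fold. Ct mouse 4 set much of the Ct mean: without it the log2 fold changes were 5.94 and 5.48. Inside the shared set, ECH vs Ct was 4.25. By mean CPM Gpnmb stood at rank 8408 of all genes tested in Ct, 519 in ECH and 781 in HF.

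Lgals3 encodes galectin-3, a β-galactoside-binding lectin that was already abundant in Ct Mφ. Its level was 359, 410, 507 and 338 CPM in Ct mice 1 to 4. It was 851, 915, 871 and 677 CPM in ECH mice 1 to 4 and 957, 912, 1152 and 961 CPM in HF mice 1 to 4. No iso mouse overlapped with Ct, and the spread inside each group was small, with a coefficient of variation of 18.7% in Ct, 12.6% in ECH and 10.7% in HF. Means were 403 ± 75.3, 829 ± 105 and 996 ± 106 CPM (SD, n = 4). The log2 fold change was 1.04 ± 0.15 (SE) in ECH vs Ct and 1.30 ± 0.15 in HF vs Ct, or 2.05-fold and 2.47-fold, so the gene was just inside the 2-fold threshold in ECH, while Cd9, at 1.74-fold in HF vs Ct, was the nearest of the 6 outside it. Inside the shared set, ECH vs Ct was 1.12. Lgals3 went from rank 322 in Ct to 136 in ECH and 122 in HF.

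Trem2, the receptor gene that gives the state its best known marker, did not separate the groups. Its level was 124, 203, 109 and 130 CPM in Ct mice 1 to 4. It was 161, 164, 187 and 144 CPM in ECH mice 1 to 4 and 181, 159, 166 and 114 CPM in HF mice 1 to 4. The highest library of all 12 was Ct mouse 2 and the lowest Ct mouse 3, so the Ct mice spanned the whole range. Apart from Ct mouse 2, every Ct mouse was below every ECH mouse. Means were 142 ± 42.0, 164 ± 17.6 and 155 ± 29.1 CPM (SD, n = 4). The log2 difference was 0.21 in ECH vs Ct, with a 95% interval of −0.21 to 0.64, and 0.13 in HF vs Ct, with an interval of −0.29 to 0.55. With a library left out it ran from 0.11 to 0.44 in ECH vs Ct and from 0.03 to 0.36 in HF vs Ct.

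Cd9 encodes a tetraspanin of the plasma membrane that marks these cells in adipose tissue. Its level was 153, 155, 142 and 106 CPM in Ct mice 1 to 4. It was 182, 278, 157 and 111.4 CPM in ECH mice 1 to 4 and 210, 217, 272 and 269 CPM in HF mice 1 to 4. All HF mice were above all Ct mice, but ECH mouse 4 lay among the Ct mice and ECH mouse 2 was the highest of all. Means were 139 ± 23.1, 182 ± 70.2 and 242 ± 33.2 CPM (SD, n = 4), and the log2 difference was 0.39 ± 0.23 (SE) in ECH vs Ct and 0.80 ± 0.23 in HF vs Ct. ECH mice 1 and 2, of the set with Ct, were above ECH mice 3 and 4, of the set with HF. Inside the sets the log2 difference was 0.72 for ECH vs Ct and 0.85 for HF vs ECH, beside 0.41 for HF vs ECH over all mice, and with the set as a covariate HF vs Ct was 1.58, where Cd9 was called.

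Platelets express Cd9 strongly, and their markers were examined beside it. Of 4 platelet markers (Itga2b, Gp9, Gp1bb and Ppbp), 1 was detected in all Ct libraries and 2 in all ECH and all HF libraries. The filter left Itga2b and Ppbp to be tested, and 0 of these 2 were called. Their summed level, nearly all of it Ppbp, ranged over 8.66 to 18.5 CPM in Ct and 46.5 to 92.1 CPM in HF. ECH mice 1 and 2 had sums of 46.4 and 68.1 CPM, and sums of 8.14 and 6.83 CPM were found for ECH mice 3 and 4, the same split as for Cd9. The cells were sorted on CD14 and CD64, and how far this removed platelets was not measured. The part of the platelet transcripts in the Cd9 difference was not tested.

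Cd63 encodes a tetraspanin of late endosomes and lysosomes and was among the most abundant of the 6 genes in every group. Its level was 625, 768, 516 and 498 CPM in Ct mice 1 to 4. It was 825, 661, 694 and 653 CPM in ECH mice 1 to 4 and 895, 825, 675 and 603 CPM in HF mice 1 to 4. The groups overlapped at both times. Means were 602 ± 124, 708 ± 80.1 and 750 ± 134 CPM (SD, n = 4), with a log2 difference of 0.23 (95% interval −0.13 to 0.60) in ECH vs Ct and 0.32 (−0.05 to 0.68) in HF vs Ct.

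**Figure D2:**
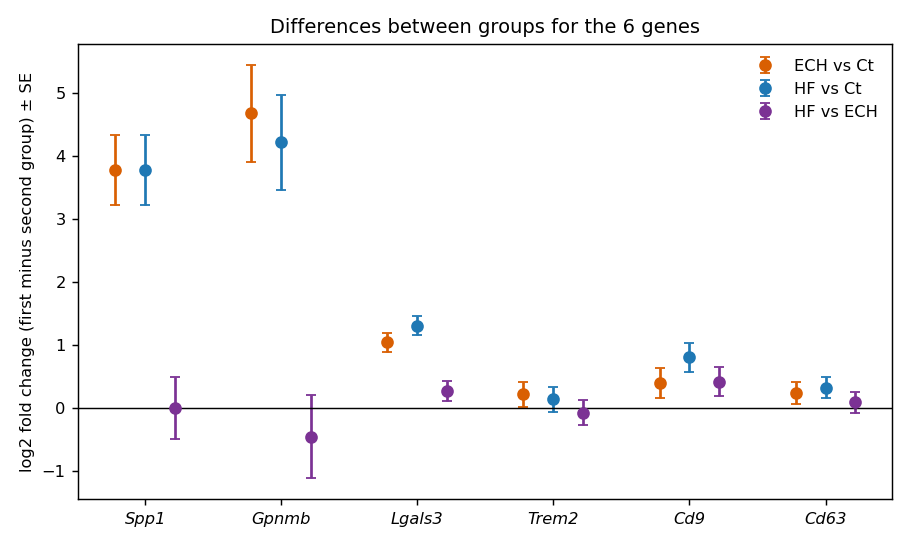
Log2 fold change of each of the 6 genes (y axis, first group minus second, ± SE of the fit) for ECH vs Ct (orange), HF vs Ct (blue) and HF vs ECH (purple), 4 mice per group. Spp1 and Gpnmb lie near 4 against Ct at both times, Lgals3 between 1.04 and 1.30, Trem2 at 0.21 and 0.13, and every HF vs ECH value lies between −0.46 and 0.41.

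Between 14 and 28 days of iso the 6 genes overlapped in all cases. Across all genes, 3.36% stood apart with HF higher and 3.56% with HF lower, and 0 genes were called in HF vs ECH by the quasi-likelihood test of edgeR, with 1165 genes (7.98%) at an unadjusted p under 0.05 and 47 called by DESeq2. With the inferred library set as covariate 272 genes were called, and 370 inside the set that ECH mice 3 and 4 share with HF, with 0 of the 6 genes among them in either fit. The log2 difference, HF minus ECH, was −0.00 for Spp1 with a 95% interval of −1.08 to 1.07, and −0.46 for Gpnmb with an interval of −1.89 to 0.97. It was 0.26 for Lgals3 (−0.06 to 0.59), −0.08 for Trem2 (−0.51 to 0.34), 0.41 for Cd9 (−0.09 to 0.91) and 0.08 for Cd63 (−0.28 to 0.45). Inside the set of ECH mice 3 and 4 and the HF mice, the differences were −0.11 for Spp1, −0.78 for Gpnmb, 0.36 for Lgals3, −0.09 for Trem2 and 0.16 for Cd63.

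Counts of the other genes were also set against those of Trem2 in the same library. A Ct library held 0.172 to 0.523 counts of Spp1 per count of Trem2, an ECH library 1.81 to 5.99 and an HF library 1.92 to 9.67. For Gpnmb the range was 0.012 to 0.234 in Ct, 0.823 to 2.68 in ECH and 0.861 to 1.99 in HF. For neither gene did a range in iso hearts meet that of Ct. For Lgals3 the ratio was 2.02 to 4.66 in Ct, 4.66 to 5.58 in ECH and 5.27 to 8.45 in HF, and for Cd63 the ranges overlapped (3.78 to 5.04, 3.71 to 5.12 and 4.06 to 5.3). For Cd9 it was 0.764 to 1.3 in Ct, 0.771 to 1.69 in ECH and 1.16 to 2.37 in HF, so that Cd9 in HF, apart from Ct by CPM, overlapped with Ct by this measure. Ratios within a library do not depend on how the libraries are scaled. Gpnmb per count of Spp1 was 0.0698 to 0.672 in Ct, 0.309 to 0.65 in ECH and 0.205 to 0.448 in HF, which overlap.

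Per kilobase of the transcript, on which levels of different genes can be compared, the order in Ct was Cd63 (543 CPM per kb), Lgals3 (284), Trem2 (130), Cd9 (113), Spp1 (32.6) and Gpnmb (3.01), with Trem2 and Cd9 as the only neighbours whose ranges over mice overlapped. In ECH it was Cd63 (639), Lgals3 (584), Spp1 (446), Trem2 (151), Cd9 (148) and Gpnmb (77.0), where the ranges of all neighbours overlapped except Spp1 and Trem2. In HF it was Lgals3 (702), Cd63 (676), Spp1 (445), Cd9 (197), Trem2 (143) and Gpnmb (56.0), where Lgals3 overlapped with Cd63 and Cd63 with Spp1, and no other neighbours did. Gpnmb, in spite of its fold change, stayed the lowest of the 6 by mean in each group.

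**Figure D3:**
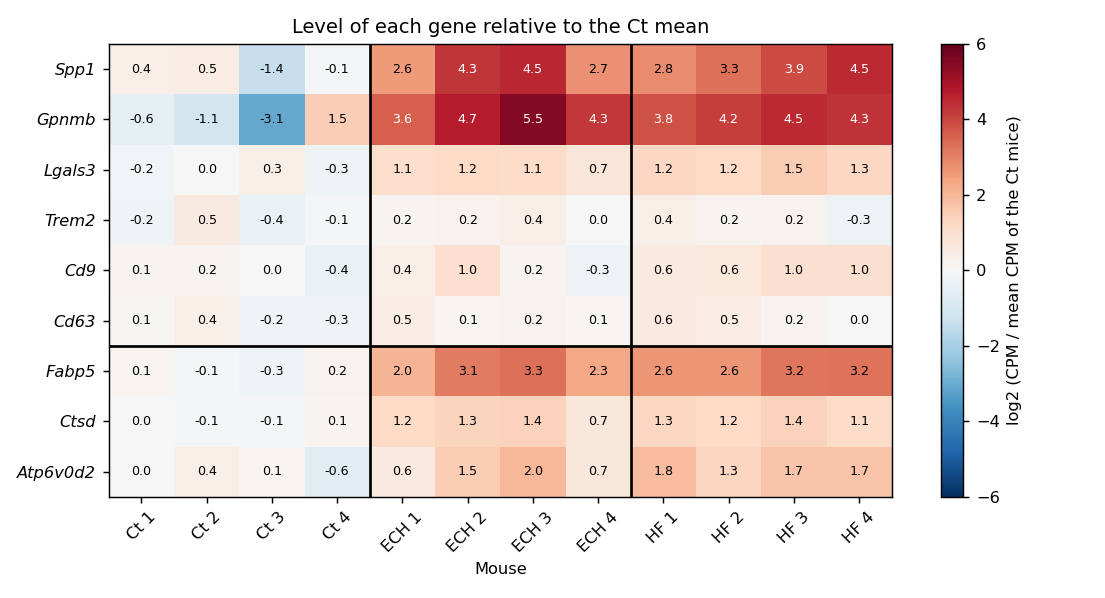
Level of the 6 genes and of the 3 companion genes described below in every mouse, as log2 of the CPM over the mean CPM of the Ct mice (colour and printed value, red above and blue below the Ct mean). ECH mice 2 and 3 and HF mice 3 and 4 hold the highest Spp1 and Fabp5 values, and Gpnmb is lowest in Ct mouse 3 (1.30 CPM).

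Around the 6 genes, 76 companion genes in 5 lists were tested: partners and sheddases of TREM2, receptors and modifiers of osteopontin, lipid and lysosome genes of the same Mφ state, MiT/TFE factors with their regulators, and relatives of the 6 genes. All 76 passed the filter. By the quasi-likelihood test of edgeR with FDR over all genes, 2 rose and 0 fell in ECH vs Ct (2.63%, beside 0.356% of all genes called in either direction), 3 rose and 0 fell in HF vs Ct (3.95%, beside 0.377%), and 0 were called in HF vs ECH, where 15 had an unadjusted p under 0.05. In ECH vs Ct 27 and in HF vs Ct 26 of the 76 had an unadjusted p under 0.05, and 11.9% and 16.1% of all genes did. The genes called were all in the lipid and lysosome list. The lists were chosen with earlier results of these data known, so nothing is read from their shares beside those of all genes.

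Fabp5, a cytosolic fatty acid binding protein, rose at both times. Its level was 17.1, 14.7, 13.1 and 18.6 CPM in Ct mice 1 to 4, 64.5, 137, 158 and 78.1 CPM in ECH mice and 98.9, 99.5, 146 and 150 CPM in HF mice. As with Spp1, ECH mice 2 and 3 were above ECH mice 1 and 4, and no iso mouse overlapped with Ct. The log2 fold change was 2.79 ± 0.28 (SE, edgeR FDR 0.00091) in ECH vs Ct and 2.96 ± 0.29 (edgeR FDR 0.0010) in HF vs Ct. Inside the set of ECH mice 1 and 2 with Ct the log2 value was 2.66, but with 2 ECH mice the call was lost (edgeR FDR 0.132).

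Ctsd, cathepsin D, the main aspartic protease of lysosomes, rose from a high level. It stood at 989 to 1140 CPM in Ct, at 2360, 2600, 2700 and 1650 CPM in ECH mice 1 to 4 and at 2230 to 2690 CPM in HF. The log2 fold change was 1.18 ± 0.15 (edgeR FDR 0.0080) in ECH vs Ct and 1.24 ± 0.15 (edgeR FDR 0.0033) in HF vs Ct. In ECH vs Ct the call was lost when only these groups were fitted (edgeR FDR 0.0649) and inside the shared set (0.139), with log2 values between 1.1 and 1.31 over all alternatives. Atp6v0d2, a subunit of the proton pump that acidifies lysosomes, rose in HF, from a mean of 9.41 ± 2.59 CPM in Ct to 29.9 ± 4.52 (SD, n = 4; log2 fold change 1.67 ± 0.32, edgeR FDR 0.039), and had 23.6 ± 11.3 CPM in ECH (log2 fold change 1.33, edgeR FDR 0.10). The HF call was lost in 12 of 20 alternatives (FDR 7.74e-05 to 0.271).

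Of the other 23 lipid and lysosome genes, 0 were called. The apolipoprotein gene Apoe, a TREM2 ligand and by far the most abundant gene of the lists, had a mean of 21810 ± 2103 CPM in Ct, 22040 ± 4520 in ECH and 17750 ± 3416 in HF (SD, n = 4), with log2 differences of 0.02 (edgeR FDR 0.988) and −0.30 (edgeR FDR 0.426). The median log2 difference of the 26 genes was 0.18 in ECH vs Ct and 0.25 in HF vs Ct. Individual values ran from −2.07 to 2.79 in ECH vs Ct and from −1.46 to 2.96 in HF vs Ct, so the list did not lie on a single side of 0.

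TREM2 signals through Tyrobp, whose transcript was not called in any comparison. Tyrobp stood at 1121 ± 293 CPM in Ct, 979 ± 120 in ECH and 1138 ± 130 in HF (SD, n = 4), with log2 differences of −0.20 (edgeR FDR 0.706) and 0.02 (edgeR FDR 0.969). Of the 10 partners and sheddases 0 were called in either direction, with a median of 0.04 in ECH vs Ct and −0.03 in HF vs Ct. The lowest unadjusted p in ECH vs Ct belonged to Inpp5d, the phosphatase SHIP1 that restrains this pathway, at a log2 difference of 0.59 (edgeR FDR 0.140), and to Adam10, a protease that sheds TREM2, at 0.59 (edgeR FDR 0.331). In HF vs Ct the differences were −0.10 and 0.04, and −0.58 and −0.62 with the set as a covariate. The levels of Adam10 in ECH mice 1 to 4 were 160, 190, 303 and 252 CPM. Its ECH vs Ct difference was 0.21 inside the shared set (edgeR FDR 0.972), and its HF vs ECH difference was −0.84 inside the other set (edgeR FDR 0.0337, short of 2-fold). Inpp5d stood apart between HF and ECH, with 320 to 329 CPM in the HF mice and 436 to 647 CPM in the ECH mice, and was not called (log2 difference −0.69, edgeR FDR 0.491). Inside the set of ECH mice 3 and 4 and HF the difference was −0.91 (edgeR FDR 0.0039), short of 2-fold.

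Osteopontin is read by CD44 and by integrins, and 0 of its 10 receptors and modifiers were called. Cd44 had 240 ± 69.1 CPM in Ct, 285 ± 70.9 in ECH and 362 ± 53.7 in HF (SD, n = 4), with log2 differences of 0.25 (edgeR FDR 0.697) and 0.59 (edgeR FDR 0.223). With the set as a covariate the HF vs Ct value of Cd44 was 1.22 (edgeR FDR 0.0767), and inside the set HF vs ECH was 0.69 (edgeR FDR 0.045, short of 2-fold). The integrin genes Itga5 and Itgb5 had the lowest unadjusted p of the list. Itga5 was 0.65 in ECH vs Ct and 0.53 in HF vs Ct on the log2 scale (edgeR FDR 0.0728 and 0.123), with every iso mouse above every Ct mouse. Itgb5 was 0.60 and 0.41 (edgeR FDR 0.107 and 0.219). The median of the list was 0.28 in ECH vs Ct and 0.34 in HF vs Ct.

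Gpnmb is a known target of the MiT/TFE factors, and none of the transcripts of these factors was called. Mitf stood at 26.6 ± 6.63 CPM in Ct, 18.2 ± 2.12 in ECH and 21.9 ± 7.33 in HF (SD, n = 4). Its log2 differences were −0.55 (edgeR FDR 0.385) and −0.28 (edgeR FDR 0.616). Tfeb differed by −0.07 and −0.33 and Tfe3 by −0.02 and −0.07, none of them called, and 0 of the 9 genes of this list were called. Rragc, a GTPase that holds these factors at the lysosome, was 0.43 in ECH vs Ct (edgeR FDR 0.202) and Fnip1, a partner of folliculin, −0.78 in HF vs Ct (edgeR FDR 0.187). For Fnip1 the HF vs Ct value was −1.49 with the set as a covariate (edgeR FDR 0.0853), and HF vs ECH inside the set was −0.75 (edgeR FDR 0.0412, short of 2-fold). These are transcript levels, and the factors are known to be controlled by their location in the cell, which was not measured here.

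Relatives of the 6 genes were not called either (0 of 21). They comprise other TREM receptors, galectins, tetraspanins and their partners, and Pmel, the closest relative of Gpnmb. Pmel was close to absent, at mean CPM of 0.577, 0.572 and 0.536 in Ct, ECH and HF. Among galectins and their ligands, Lgals9 had 175 ± 29.1 CPM in Ct and 263 ± 23.8 in HF (SD, n = 4; log2 difference 0.59, edgeR FDR 0.0915), and Lgals3bp, a glycoprotein bound by galectin-3, had 270 ± 26.9 CPM in Ct and 388 ± 30.8 in ECH (0.53, edgeR FDR 0.107). Both stood apart from Ct in these comparisons without being called. The median of the 21 was −0.23 in ECH vs Ct and −0.10 in HF vs Ct.

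**Figure D4:**
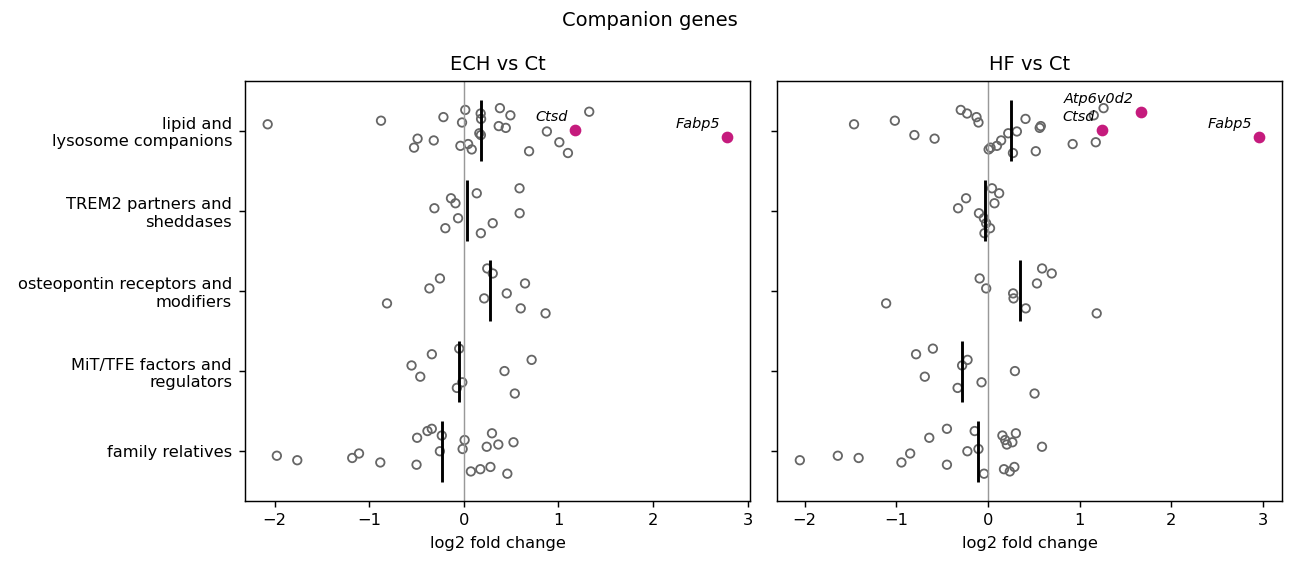
Log2 fold change (x axis) of each of the 76 companion genes by list (y axis) in ECH vs Ct (left) and HF vs Ct (right), which share the 4 Ct mice. Filled points are genes called at an FDR under 0.05 and at least 2-fold (Fabp5 and Ctsd in both, Atp6v0d2 in HF vs Ct), open points were not called, and black bars are list medians, between −0.23 and 0.28 on the left and between −0.28 and 0.34 on the right.

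The genes most like Spp1, Trem2 and Gpnmb over the 12 libraries, by Pearson's r of log2(CPM + 0.5) among 11941 genes with a mean of at least 1 CPM, are given as a description. For Spp1 they were Fabp5 (r = 0.976, Spearman's rho = 0.965), the membrane-anchored matrix metalloproteinase gene Mmp14 (0.967 and 0.923) and Gm2a, the GM2 ganglioside activator of lysosomes (0.942 and 0.895). For Gpnmb they were Fabp5 (0.951 and 0.951), Syngr1 (0.942 and 0.79) and Spp1 itself (0.939 and 0.93). For Trem2 they were the mitochondrial β-oxidation gene Hadh (0.927 and 0.979), the autophagy protease gene Atg4b (0.896 and 0.895) and the DNA repair gene Xrcc1 (0.883 and 0.888). None of the 3 genes most like Trem2 was among those most like Spp1 or Gpnmb. With the group means removed, r was 0.861 for Spp1 with Fabp5, 0.646 for Gpnmb with Fabp5, 0.601 for Gpnmb with Spp1 and 0.957 for Trem2 with Hadh. The points share their library and its depth.

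Markers of other cell types were summed in each library. Of 8 fibroblast markers, 6 were detected in all Ct and all HF libraries and 8 in all ECH libraries, none was at 0 throughout a group, and their sum was 29.9 to 195 CPM in Ct, 90.7 to 469 in ECH and 82.4 to 250 in HF. Fibroblasts would be removed by the gate on CD45, CD11b, CD14 and CD64. Of 6 monocyte markers 5 were detected in all Ct and HF libraries and 6 in all ECH libraries, with sums of 291 to 593 CPM in Ct, 517 to 690 in ECH and 539 to 906 in HF. Of 5 dendritic cell markers, 4 were detected in all Ct and HF libraries and 5 in all ECH libraries, and they summed to 52.7 to 65.2, 76.7 to 124 and 96.8 to 120 CPM. In ECH mice 1 to 4, of which mice 2 and 3 had the most Spp1, the sums were 238, 163, 90.7 and 469 CPM for fibroblasts, 536, 622, 690 and 517 CPM for monocytes and 88.03, 79.9, 124 and 76.7 CPM for dendritic cells. The part of these cells in the higher Spp1, Gpnmb and Lgals3 was not tested.

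B cell markers (5 genes) summed to 96.6 to 446 CPM in Ct, 34.3 to 79.8 in ECH and 50.1 to 74.6 in HF. Sums in Ct, ECH and HF were 12.7 to 58.6, 2.71 to 23.2 and 7.2 to 17.3 CPM for 6 markers of T and NK cells, and 329 to 1560, 182 to 500 and 119 to 1230 CPM for 6 neutrophil markers. Resident Mφ markers (6 genes) summed to 4080 to 5310, 4510 to 6060 and 3760 to 4630 CPM, and 1 of them, Timd4, fell in ECH vs Ct (log2 −1.62, edgeR FDR 0.0341) and was not called in HF vs Ct (−0.93, edgeR FDR 0.172). The log2 difference was positive for 3 of the 6 in ECH vs Ct (Cd163, Lyve1 and Mrc1, none called) and for 2 in HF vs Ct. Endothelial markers, 6 genes, stayed between 7.81 and 27.5 CPM in all libraries and 6 cardiomyocyte markers between 53 and 190 CPM.

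**Figure D5:**
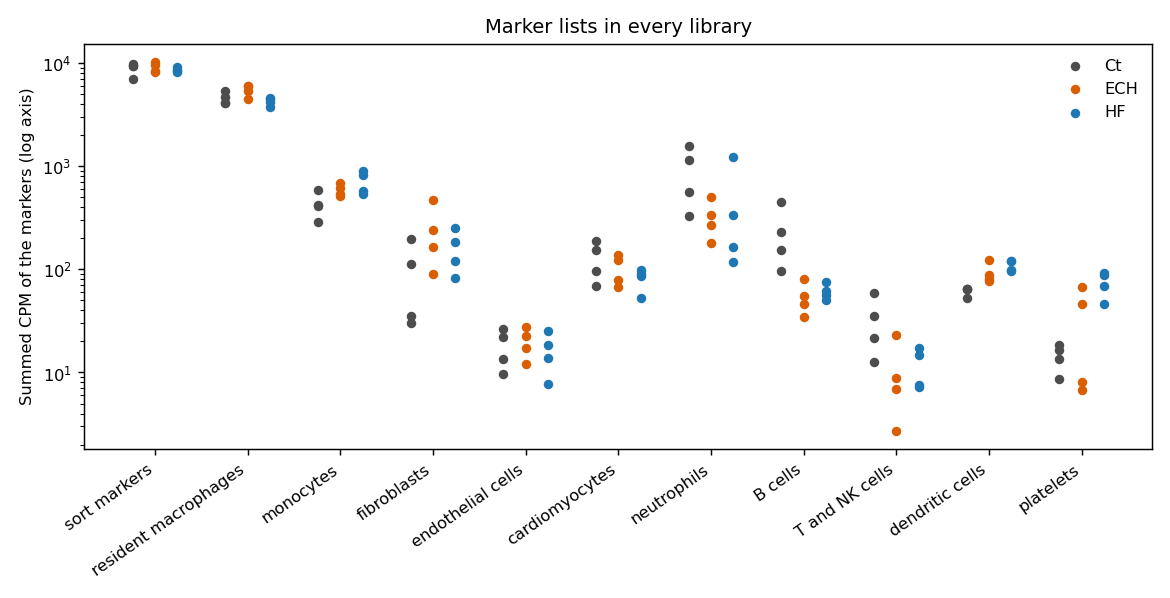
Summed CPM (log axis) of 11 marker lists in every library, Ct in grey, ECH in orange and HF in blue, 4 mice each. Sort markers lie between 7080 and 10200 CPM in all 12 libraries, B cell sums are higher in every Ct library (from 96.6 CPM) than in any iso library (up to 79.8 CPM), and platelet sums split the ECH libraries.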

How the data were processed

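RNA of sorted CD14+/CD64+ cardiac Mφ was sequenced from 12 mice, 1 library each, grouped by the condition in their labels. The authors made cDNA with SMART-Seq v4, and processed the reads with Trimmomatic, TopHat2 (genome mm10, or GRCm38) and featureCounts, per their methods and processing notes. What the authors deposited are raw counts per gene symbol, without normalization. Tool versions, annotation and strand setting are not stated in the sources used here, and the libraries carry no molecular identifiers, so counting error alone understates the error of a value.

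Counts were filtered (filterByExpr by group), scaled by TMM and fitted over all 12 libraries with the quasi-likelihood test of edgeR 4.0.16 in R 4.3.3 (common dispersion 0.37), with Benjamini-Hochberg adjustment over all 14608 genes. Calls needed an FDR under 0.05 and at least 2-fold. Each mouse is 1 replicate, but title codes share a first part, of unstated meaning, for Ct mice 1 and 2, Ct mice 3 and 4, ECH mice 3 and 4 and HF mice 1 and 2, so the mice may not be fully independent. No libraries of a group agreed within sampling noise. The replicate numbers did not pair the mice. The 6 genes, the companion and marker lists and the alternatives were chosen with earlier results of these data known. Named are the 6 genes and, per companion list, every gene called, or otherwise the 2 with the lowest unadjusted p over the 3 comparisons. Also named are Tyrobp, Apoe, Mitf, Tfeb, Tfe3 and Cd44, and the 3 genes most like Spp1, Trem2 and Gpnmb. Pmel, Itgam, Timd4, Cd163, Lyve1, Mrc1, Itga2b and Ppbp were named outside this rule, after their values were seen.

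Alternatives were RLE scaling, DESeq2 1.42.0, no filter beyond 1 count, a filter of 1 CPM in 4 libraries, the 2 groups compared alone, a replicate block, a covariate for the inferred library set, a single inferred set, a fit without Ct mouse 2 and HF mouse 1, the plain ratio of mean CPM, and each library left out in turn. The code was tested on simulated data. Gene positions and transcript lengths came from GENCODE M21 and promoter windows from RefSeq, of which all 6 genes had an entry. Figures were drawn with matplotlib 3.10.9 in Python 3.11.15.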

Additional observations from a re-analysis of the deposited data

Results flagged for a closer look

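Of 69 sets of 4 values examined for the 6 genes and the named companions, 3 held a mouse far from the other 3 of its group by Dixon's ratio (over 0.829), and none of them was of the 6 genes. Chance flags about 5% of such sets. In HF mouse 1 the MiT/TFE factor gene Tfe3 stood at 134 CPM, below the other HF mice. In Ct mouse 4 the cathepsin D gene Ctsd stood at 1140 CPM, above the other Ct mice and below every iso mouse. In ECH mouse 2 the Rag GTPase gene Rragc stood at 221 CPM, below the other ECH mice.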

How the results depend on the processing

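In ECH vs Ct 52 genes were called, against 248 with DESeq2, 8 when only these groups were fitted, 22 with the replicate block, 22 with a covariate for the inferred library set, 1 inside the set, and 11 to 95 with a library left out (leaving out Ct mouse 1, 3 or 4 gave 11, 95 or 26, and ECH mouse 3 or 4 gave 17 or 27). In HF vs Ct 55 were called, against 337 with DESeq2, 18 with the replicate block, 208 with the set as a covariate and 15 to 103 with a library left out (15, 103 and 25 without Ct mice 1, 3 and 4, 36 without ECH mouse 1, and 33, 18, 19 and 25 without HF mice 1 to 4). In HF vs ECH 0 were called, against 47 with DESeq2, 272 with the set as a covariate, 370 inside the set and 0 with any library left out. Of the 76 companions, the 2 called in ECH vs Ct became 4 with DESeq2, 1 when only these groups were fitted, 0 inside the set and 2 to 4 with a library left out, the 3 in HF vs Ct became 6 with DESeq2, 6 with the set as a covariate and 2 to 4, and the 0 in HF vs ECH became 4 with the set as a covariate and 7 inside the set. The cause was not tested. None of the log2 fold changes of the 6 genes against Ct changed sign, over 22 alternatives in ECH vs Ct and 21 in HF vs Ct. Spp1 kept to 3.41 to 4.03 and 3.43 to 4.17, and Lgals3 to 0.96 to 1.17 and 1.23 to 1.49, so Lgals3 went below 2-fold in some alternatives for ECH vs Ct. Gpnmb ran from 4.26 to 5.94 in ECH vs Ct and from 3.85 to 5.48 in HF vs Ct with a library left out, the highest without Ct mouse 4, and was 3.47 in HF vs Ct with the set as a covariate. Cd9 moved to 1.58 in HF vs Ct with the set as a covariate and was then called, and in HF vs ECH to 0.85 with that covariate and 0.85 inside the set. Same-numbered mice did not deviate together (r from −0.07 to 0.07 over 12 pairs, 0 above 0.1), so the replicate block is given as a check alone. No fit inside a set exists for HF vs Ct. The median log2 fold change over all genes lay between −0.018 and 0.01 under TMM, RLE and DESeq2 scaling.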
